A study of Mus musculus with 8 samples.

Results

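The mitochondrial ribosomal protein genes are the nuclear genes named Mrpl or Mrps with a number, whose products build the large and the small subunit of the ribosome inside mitochondria. All rows of the gene count table whose symbol follows that pattern were taken, which gave 78 of the 26146 genes listed, 49 named for the large subunit (Mrpl) and 29 for the small subunit (Mrps). No symbol ended in the suffix used for pseudogenes, and all 78 genes passed the filter on low counts that left 13439 genes for testing. RNA had been collected from LSK cells (Lin-Sca1+Kit+), the sorted population of mouse bone marrow that holds haematopoietic stem cells and early progenitors. Polyadenylated RNA of bulk cells was sequenced from 4 wild type samples and 4 samples labelled Jmjd6 KO. In the KO samples a floxed allele of Jmjd6, the gene of a nuclear dioxygenase, was deleted by a Cre that the labels call cell type specific and active in haematopoietic lineages. The labels repeat this protocol for every sample and name neither the promoter that drives the Cre, nor the age, sex or strain of the animals, nor whether the wild type animals carried the floxed allele or the Cre. They do not say that each sample came from a separate animal, so the p-values measure the spread between these samples. The comparison asks how the level of each mitochondrial ribosomal protein transcript differs between KO and wild type LSK cells.

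Mitochondria translate the few messenger RNAs of their own genome, which encode core subunits of the respiratory chain and of the ATP synthase, on ribosomes that differ from those of the cytosol. The ribosomal RNAs of these particles are encoded in the mitochondrial genome, whereas every protein of them is encoded in the nucleus, translated in the cytosol and imported. Some of the proteins have bacterial relatives and others occur only in mitochondria, and the particle needs assembly factors, methyltransferases and its own translation factors and tRNA synthetases. Haematopoietic stem cells are known for low reliance on respiration while quiescent, and their mitochondria are engaged more strongly when they divide or differentiate.

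Libraries held 9344779 to 15079960 counted reads, and a mitochondrial ribosomal protein gene had 175 to 3451 counts in a library. The biological coefficient of variation over all genes was 27.8%. KO replicate 3 stood apart from the other libraries, with a score of 83.9 on the first principal component (37.8% of the variance) against -28 to 9.41 in the other 7. Genes of the Y chromosome had 0 counts in KO replicate 3 and in wild type replicate 4 and 3660 to 4814 counts in each of the other 6 libraries. The 8 markers listed for LSK cells, among them Kit and Ly6a, were detected in every library, with sums of 3000 to 3780 CPM (counts scaled to library size, with trimmed mean of M values factors) in wild type and 2930 to 3250 CPM in KO. Cd34 alone had 1140 to 1420 CPM, so the sums say little about the weaker markers. Of these 8, only 1 had a log2 fold change above 0, where 49.6% of all genes tested did. Hlf stood at 205, 178, 250 and 276 CPM in wild type replicates 1 to 4 and at 161, 157, 145 and 118 CPM in KO replicates 1 to 4. All its KO libraries lay below all its wild type libraries, which held for 284 of 13439 genes tested. Whether the sorted populations matched was not tested. Markers of other blood cells had lower sums for 5 of 6 lists, and none of these lists had a marker at 0 in all libraries. Several sums rested largely on 1 gene, so they do not show that a cell type was present. Car2 of the erythroid list had 840 to 952 CPM, Lck of the T cell list 54.8 to 84.5 and Ighm of the B cell list 314 to 608. Hbb-bs stayed at 0.352 to 3.22 CPM, and Cd3e was above 0 only in wild type replicate 4, at 0.0631 CPM. The neutrophil list reached 5230 CPM in wild type replicate 1, where the remaining wild type libraries had 982 to 1250 CPM and the KO libraries 1550 to 2380 CPM. The erythroid list was also highest in that library, at 1430 CPM beside 868 to 919 CPM in the other 3 of wild type and 870 to 965 CPM in KO; Car1, a carbonic anhydrase of red cell precursors, stood there at 339 CPM and elsewhere at 7.58 to 41.2 CPM. The B cell list spanned 380 to 488 CPM in wild type and 400 to 697 CPM in KO, and 0 markers of any list passed the test. Without wild type replicate 1 the median log2 fold change of the mitochondrial ribosomal protein genes was 0.33 in either subunit; the part of other cells in it was not tested. In bulk RNA, fewer cells of a type and less RNA per cell cannot be told apart.

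The targeted gene was measured first. Jmjd6 stood at 52.5, 63.7, 54.6 and 63.7 CPM in wild type replicates 1 to 4 and at 28.7, 28.1, 30.7 and 27.5 CPM in KO replicates 1 to 4. The groups did not overlap, and KO libraries kept 49% of the wild type mean (58.6 ± 5.93 against 28.7 ± 1.41 CPM, SD, n = 4 each, exact two-sided permutation p = 0.0286, the smallest this design allows). The log2 fold change was -1.03 (95% interval -1.36 to -0.70), and edgeR's quasi-likelihood test gave an adjusted p of 0.0381. The call was lost when any single library other than KO replicate 3 was left out (adjusted p 0.0986 to 0.254 by the same test), while the fold change stayed between -1.06 and -0.99.

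Promoter sequences are shown here for the members whose start regions differ in the letters known as binding motifs of regulators of this gene family. The table of RefSeq promoters on GRCm38.p6, which covers 250 bases before to 50 bases after a transcript start, held 75 promoters for 69 of the 78 genes; it held no entry for Mrpl15, Mrpl54, Mrpl38, Mrpl13, Mrps34, Mrps28, Mrpl19, Mrps35 and Mrpl4. Capitals mark matches, on either strand, to CCGGAAG (a core bound by ETS family factors such as GABPA), GCATGCG (a core of the motif of the nuclear respiratory factor NRF1) and ATGGCGG (a core of the YY1 motif, which holds an ATG). The stretch CGCATGCG holds the NRF1 letters on both strands, so those matches overlap. The sequences were chosen after values had been seen: Mrpl22 as the one member with matches to all 3 motifs, Mrps12 as the protein of the decoding centre with an ETS match at its start, Mrpl24 as the member with the lowest p, and short windows of Mrps18a, Mrps18b and Mrps18c as related genes with an ETS match each. All are written 5′ to 3′ on the gene's strand.
Mrpl22 promoter (chr11:58171414-58171713, plus strand): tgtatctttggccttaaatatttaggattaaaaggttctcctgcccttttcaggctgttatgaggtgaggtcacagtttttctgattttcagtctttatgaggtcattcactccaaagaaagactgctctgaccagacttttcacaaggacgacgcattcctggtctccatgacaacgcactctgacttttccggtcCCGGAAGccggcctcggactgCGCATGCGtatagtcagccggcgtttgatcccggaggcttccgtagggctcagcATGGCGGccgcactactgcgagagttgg
Mrps12 promoter (chr7:28741772-28742071, minus strand): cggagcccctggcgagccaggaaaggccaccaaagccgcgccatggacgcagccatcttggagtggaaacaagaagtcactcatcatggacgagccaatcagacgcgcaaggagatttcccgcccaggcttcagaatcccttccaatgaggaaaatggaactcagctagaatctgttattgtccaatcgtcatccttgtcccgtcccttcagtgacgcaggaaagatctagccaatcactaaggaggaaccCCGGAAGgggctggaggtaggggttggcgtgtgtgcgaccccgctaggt
Mrpl24 promoter (chr3:87919294-87919593, plus strand): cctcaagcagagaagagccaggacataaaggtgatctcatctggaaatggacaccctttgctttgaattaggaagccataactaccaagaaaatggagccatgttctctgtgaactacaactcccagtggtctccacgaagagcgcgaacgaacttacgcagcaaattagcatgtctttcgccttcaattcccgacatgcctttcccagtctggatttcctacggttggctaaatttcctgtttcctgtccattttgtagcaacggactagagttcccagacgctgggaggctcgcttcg
Mrps18a window (chr17:46110963-46110999, plus strand): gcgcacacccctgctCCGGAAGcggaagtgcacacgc
Mrps18b window (chr17:35916391-35916412, minus strand): GCATGCGcagtcgctCTTCCGG
Mrps18c window (chr5:100798588-100798624, plus strand): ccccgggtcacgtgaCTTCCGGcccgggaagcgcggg

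In Mrpl22 the ETS letters begin at position -53, the NRF1 letters at -32 and -31 on the 2 strands and the YY1 letters at 22, counted with the first transcribed base as 0. The ETS letters of Mrps12 begin at position 1, those of Mrps18a at -26, and those of Mrps18b and Mrps18c lie in reverse complement at 43 and -156. The window of Mrps18b also opens with the NRF1 letters, at 28. Over the 75 promoters, CCGGAAG was found in 26 (34.7%), against 8.86% of all 32851 promoters in the table and 17.2% of the promoters of tested genes. ATGGCGG was found in 13 (17.3%), against 4.05% and 7.90%, and GCATGCG in 8 (10.7%), against 3.58% and 6.19%. Of the 69 genes with a promoter, 32 had no match, 28 had matches to 1 motif, 8 to 2 motifs and 1 to all 3. Fold changes of the genes with and without each motif are given as medians and were not tested against each other. The median log2 fold change was 0.33 with and 0.29 without the ETS letters, 0.30 with and 0.31 without the NRF1 letters, and 0.23 with and 0.32 without the YY1 letters. A match describes the letters of the window and not occupancy by a factor.

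None of the 78 genes passed the test, and nearly all had a fold change estimate above 0. By edgeR's quasi-likelihood test, 0 members passed an adjusted p of 0.05, and 8 of 13439 genes did so over the whole table (0.0595%). The lowest adjusted p of a member was 0.755, for Mrpl24. DESeq2 called 0 members and 0.471% of its 15283 genes, and limma voom with sample weights called 0 members and 0.231% of genes; at an unadjusted p of 0.05, DESeq2 gave 3 members higher in KO (3.85% of the members, 2.96% of all genes) and limma voom 2 (2.56% of the members, 4.46% of all genes). At an unadjusted p of 0.05 in the edgeR fit, 2 members were higher in KO (Mrpl24 and Mrpl16) and 0 were lower, which is 2.56% of the members beside 2.78% of all genes called higher in this way. The same 2 genes were the only members whose 4 KO libraries all lay above all 4 wild type libraries, beside 2.08% of all genes, so both counts are near the background.

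The fold changes themselves pointed one way. All 49 large subunit genes had a log2 fold change above 0, from 0.04 to 0.54 with a median of 0.29 (quartiles 0.17 and 0.39). Of the 29 small subunit genes, 27 were above 0, with a median of 0.30 and a range of -0.09 to 0.49. Over all 13439 genes the median was 0.00 and 49.6% were above 0. The median standard error of a member's log2 fold change was 0.196 and 2 of the 78 intervals excluded 0. The 76 members above 0 (97.4%) share the same 8 libraries, so their directions are not independent. The plot of fold changes shows each member with its interval.

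**Figure D1:**
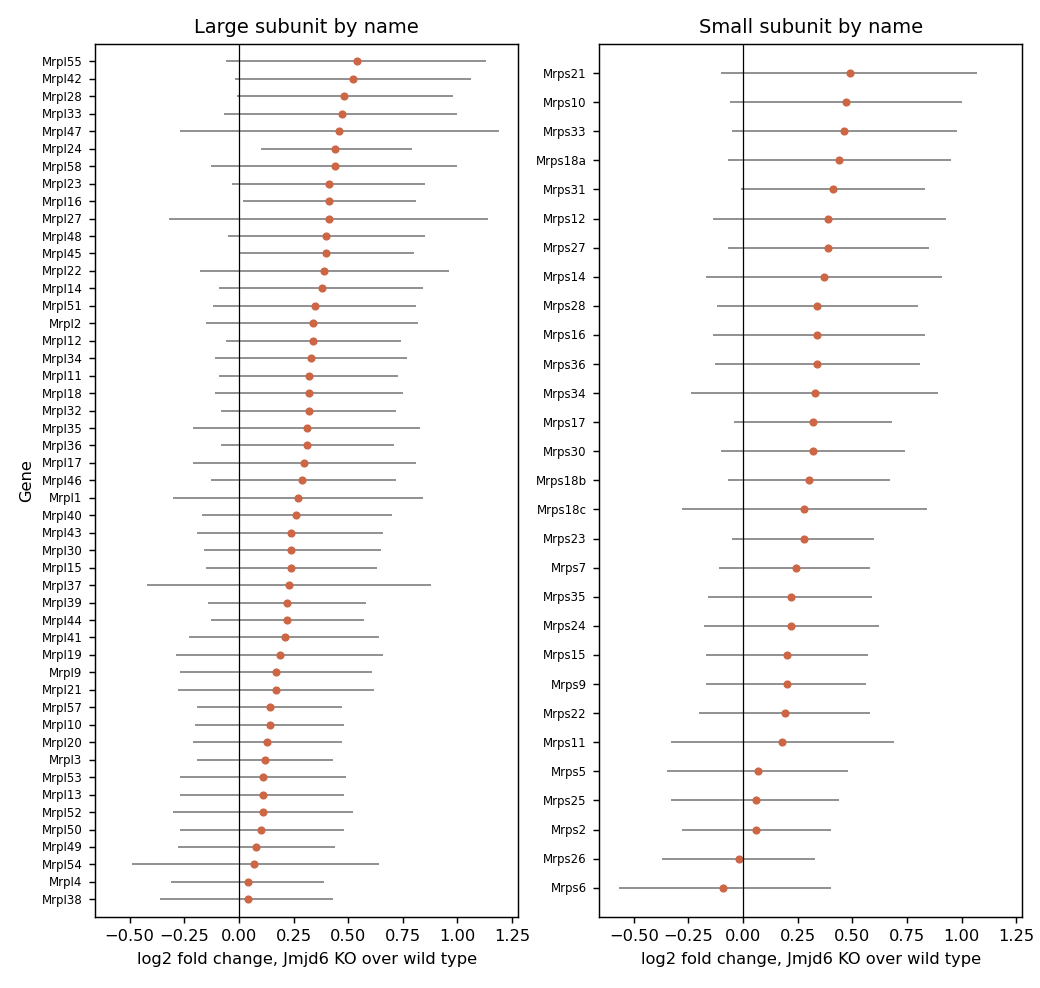
Fitted log2 fold change of each gene, KO over wild type (points), with its 95% interval (lines), for the 49 genes named for the large subunit and the 29 named for the small subunit. All points but those of Mrps26 and Mrps6 lie above 0, and only the intervals of Mrpl24 and Mrpl16 lie wholly above 0.

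The members were above wild type in KO replicates 3 and 4 and not in KO replicates 1 and 2. For each gene the log2 CPM of a library was taken relative to the mean of the 4 wild type libraries. The median of these deviations over the large subunit was -0.02 in KO replicate 1, -0.02 in KO replicate 2, 0.64 in KO replicate 3 and 0.49 in KO replicate 4. Over the small subunit it was -0.01, 0.02, 0.58 and 0.44 in the same order. Wild type replicates 1 to 4 had medians of 0.07, -0.02, -0.17 and 0.16 for the large and 0.02, -0.02, -0.19 and 0.19 for the small subunit. KO replicates 1 and 2 thus lay inside the wild type range and KO replicates 3 and 4 above it, in both subunits. Over all genes tested the corresponding medians were between -0.02 and 0.02 in each library.

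**Figure D2:**
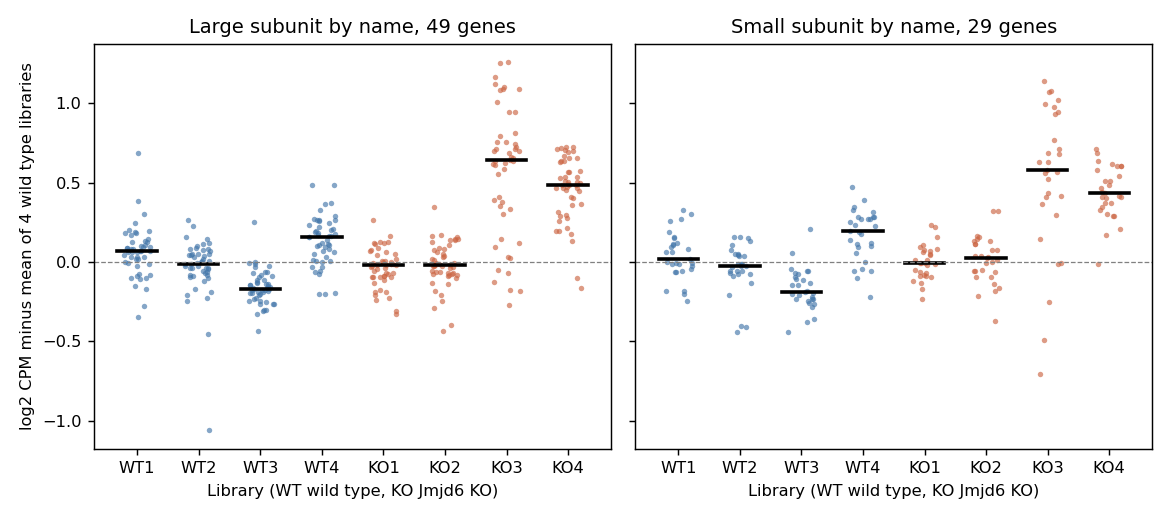
Log2 CPM of each gene minus its mean over the 4 wild type libraries, by library (WT wild type, KO Jmjd6 KO), with genes as points, black lines at the medians and blue and orange for wild type and KO. Medians of KO replicates 1 and 2 are within 0.02 of 0, and those of KO replicates 3 and 4 are between 0.44 and 0.64.

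The number of genes above every wild type library followed the same division. It was 6 of 78 (7.69%) in KO replicate 1 and 9 (11.5%) in KO replicate 2, where 16.2% and 16.7% of all genes lay above every wild type library. In KO replicate 3 it was 62 (79.5%, all genes 31.5%) and in KO replicate 4 it was 67 (85.9%, all genes 27.9%). Counted by gene, 52 members (66.7%) had exactly 2 KO libraries above every wild type library, which held for 17.9% of all genes. For 47 members these were KO replicates 3 and 4. Mrpl38 and Mrps26 had no KO library above the wild type range.

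Summed over all 78 genes, the level was 5153, 4885, 4455 and 5481 CPM in wild type libraries and 4895, 4959, 7480 and 6777 CPM in KO replicates 1 to 4. The sums of KO replicates 1 and 2 lay within the wild type range, and those of KO replicates 3 and 4 were above the highest wild type sum. The group means were 4994 ± 434 CPM in wild type libraries and 6028 ± 1300 CPM in KO (SD, n = 4 each), and the groups overlapped. Fold changes depended on these libraries: without KO replicate 3 the median log2 fold change was 0.17 for the large and 0.16 for the small subunit, and 68 of 78 members were above 0. Without KO replicate 4 the medians were 0.22 and 0.20. Leaving out KO replicate 1 raised the count at an unadjusted p of 0.05 to 22 members higher in KO (4.36% of all genes), and leaving out KO replicate 2 raised it to 13 (4.02% of all genes), with 0 members passing an adjusted p of 0.05 in either fit. With voom's sample weights the medians were 0.10 and 0.15, with 63 members above 0, and in the 6 libraries with Y-linked counts they were 0.19 and 0.24.

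The balance of large and small subunit genes varied little between libraries. The mean log2 CPM of the large subunit genes minus that of the small subunit genes was 0.16, 0.14, 0.14 and 0.10 in wild type and 0.10, 0.10, 0.19 and 0.16 in KO. Its group means were 0.14 ± 0.025 in wild type and 0.14 ± 0.043 in KO (SD, n = 4 each). The ratio of the summed CPM, large over small, ranged from 1.78 in KO replicate 2 to 1.91 in KO replicate 4. By group, the large subunit genes summed to 3228 ± 277 CPM in wild type libraries and 3917 ± 891 CPM in KO, and the small subunit genes to 1765 ± 158 and 2111 ± 413 CPM. The naming does not follow the structure for all genes. Mrps30 and Mrps18a are constituents of the large subunit, and Mrps36 is a component of the alpha-ketoglutarate dehydrogenase complex. With the former pair counted as large and Mrps36 left out, the median log2 fold changes were 0.30 and 0.28.

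Among the large subunit proteins with bacterial relatives, Mrpl24 and its neighbour at the exit of the peptide tunnel, Mrpl23, had estimates above the subunit's median. Mrpl24 stood at 110, 112, 103 and 90.4 CPM in wild type libraries and at 124, 116, 161 and 163 CPM in KO. All 4 KO libraries lay above the highest wild type library, KO replicate 2 by a small margin, and the log2 fold change was 0.44 (95% interval 0.10 to 0.79, adjusted p = 0.755 by edgeR's quasi-likelihood test). Mrpl16, a protein of the large subunit core near the tRNA sites, had 40.2, 36.6, 34.6 and 41.0 CPM in wild type libraries and 41.4, 42.9, 64.4 and 54.3 CPM in KO. KO replicate 1 exceeded the highest wild type library by less than the spread of the wild type libraries, and the log2 fold change was 0.41 (0.02 to 0.81, adjusted p = 0.811). Mrpl23 had 56.0, 61.8, 53.7 and 67.7 CPM in wild type libraries and 64.9, 57.1, 97.8 and 98.1 CPM in KO. Its KO replicates 1 and 2 fell among the wild type values, and its log2 fold change was 0.41 (-0.03 to 0.85).

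Mrpl55 and Mrpl42, proteins found only in mitochondrial ribosomes, and Mrpl28, which has a bacterial relative, had the highest fold changes of the large subunit, at 0.54, 0.52 and 0.48 on the log2 scale. Mrpl55 had 30.7, 27.8, 32.4 and 42.7 CPM in wild type libraries and 32.6, 36.0, 78.9 and 46.2 CPM in KO, with an interval of -0.06 to 1.13. Mrpl42 had 106, 82.9, 87.1 and 117 CPM in wild type libraries and 94.8, 105, 218 and 144 CPM in KO. Mrpl28 had 115, 127, 107 and 149 CPM in wild type libraries and 134, 125, 263 and 175 CPM in KO. In these 3 genes KO replicate 3 held the highest of all 8 values, KO replicate 4 the next, and KO replicates 1 and 2 lay within the wild type range.

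The proteins of the stalk that recruits translation factors differed from each other mainly in KO replicate 3. Mrpl12, the repeated stalk protein, had 93.1, 87.0, 74.8 and 98.7 CPM in wild type libraries and 87.0, 92.6, 143 and 125 CPM in KO, a log2 fold change of 0.34 (-0.06 to 0.74). Mrpl11, at the stalk base, had 43.0 ± 2.71 CPM in wild type libraries and 53.6 ± 13.1 CPM in KO (SD, n = 4 each), a log2 fold change of 0.32. Mrpl10, which anchors Mrpl12, had 73.5 ± 4.98 and 80.9 ± 13.6 CPM (SD, n = 4 each) and a log2 fold change of 0.14, and of its KO libraries replicate 3 was the lowest, at 69.9 CPM, and replicate 4 the highest, at 100 CPM. In KO replicate 4 all 3 genes lay above every wild type library, and in KO replicate 3 Mrpl10 did not.

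Other large subunit proteins with a known task had estimates from 0.04 to 0.44. Mrpl45, which lies at the tunnel exit and ties the ribosome to the inner membrane, had a log2 fold change of 0.40 (0.00 to 0.80), with 66.3 ± 5.68 CPM in wild type libraries and 87.4 ± 21.3 CPM in KO (SD, n = 4 each). Mrpl58, a peptidyl-tRNA hydrolase that rescues stalled ribosomes, had 32.1, 30.9, 26.1 and 37.6 CPM in wild type libraries and 29.9, 30.8, 67.6 and 43.5 CPM in KO, a log2 fold change of 0.44 (-0.13 to 1.00). Mrpl44, a protein with a ribonuclease fold, had a log2 fold change of 0.22 (-0.13 to 0.57). Mrpl3 and Mrpl4, core proteins of the large subunit with bacterial relatives, had values of 0.12 (-0.19 to 0.43) and 0.04 (-0.31 to 0.39). Mrpl4 stood at 77.1, 112, 84.9 and 104 CPM in wild type libraries and 92.5, 88.6, 95.0 and 113 CPM in KO, so that its groups overlapped almost wholly. Its small positive value turned to -0.02 with library size scaling, as did that of Mrpl38 (0.04 as fitted). The lowest large subunit values after Mrpl38 and Mrpl4 belonged to Mrpl54, with a log2 fold change of 0.07 (-0.49 to 0.64), which was -0.14 with voom's sample weights.

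In the small subunit, Mrps21, Mrps10 and Mrps33 had the highest fold changes, at 0.49, 0.47 and 0.46 on the log2 scale. Mrps10, a head protein with a bacterial relative, had 61.0, 58.7, 44.6 and 67.2 CPM in wild type libraries and 66.7, 57.8, 126 and 70.0 CPM in KO, with an interval of -0.06 to 1.00. KO replicate 3 was the only library far from the others for this gene. Mrps21 had 30.6, 18.2, 21.8 and 31.1 CPM in wild type libraries and 25.0, 27.1, 52.5 and 37.8 CPM in KO (interval -0.10 to 1.07). Mrps33, found only in mitochondrial ribosomes, had 41.2 ± 5.50 CPM in wild type libraries and 56.7 ± 20.1 CPM in KO (SD, n = 4 each).

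Mrps12, the protein of the decoding centre, had 51.7, 58.1, 48.2 and 81.5 CPM in wild type libraries and 59.2, 60.2, 117 and 78.2 CPM in KO. Wild type replicate 4 exceeded 3 of the 4 KO libraries, and the log2 fold change was 0.39 (-0.14 to 0.93). Mrps7, a protein of the head of the small subunit, had a log2 fold change of 0.24 (-0.11 to 0.58), with KO replicates 3 and 4 both at 121 CPM and wild type libraries between 77.3 and 105 CPM. Mrps5, whose bacterial relative bears on decoding accuracy, had 50.5 ± 3.29 CPM in wild type libraries and 52.9 ± 12.4 CPM in KO (SD, n = 4 each) and a log2 fold change of 0.07 (-0.35 to 0.48). Its KO replicate 3 was the lowest of all libraries, at 35.8 CPM, and its KO replicate 4 the highest, at 65.2 CPM. Mrps2, another protein with a bacterial relative, stood at 0.06 (-0.28 to 0.40).

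Mrps16, Mrps22 and Mrps34 are small subunit genes in which recessive human mutations impair mitochondrial translation. Their log2 fold changes were 0.34 (-0.14 to 0.83), 0.19 (-0.20 to 0.58) and 0.33 (-0.24 to 0.89). Mrps34 reached 87.6 CPM in KO replicate 3, and its other 7 libraries lay between 34.2 and 58.5 CPM. Mrps27, a pentatricopeptide repeat protein, had 60.3 to 72.5 CPM in wild type libraries and 66.3, 70.3, 129 and 85.1 CPM in KO, a log2 fold change of 0.39 (-0.07 to 0.85). Mrps35 had a log2 fold change of 0.22 (-0.16 to 0.59) and was at 50.2 CPM in KO replicate 3, inside the wild type range of 43.3 to 61.0 CPM.

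The 3 paralogues Mrps18a, Mrps18b and Mrps18c, whose promoters share the ETS letters shown above, take different places in the ribosome. Mrps18a, in the large subunit, had 40.2, 51.3, 39.3 and 56.4 CPM in wild type libraries and 43.6, 50.0, 88.5 and 71.8 CPM in KO, a log2 fold change of 0.44 (-0.07 to 0.95). Mrps18b had 42.6, 44.0, 37.1 and 48.9 CPM in wild type libraries and 45.2, 47.8, 64.3 and 55.6 CPM in KO, a log2 fold change of 0.30 (-0.07 to 0.67). Mrps18c had 76.7, 48.1, 58.1 and 76.7 CPM in wild type libraries and 54.1, 54.9, 109 and 97.9 CPM in KO, a log2 fold change of 0.28 (-0.28 to 0.84) that was -0.08 with voom's sample weights. In each of the 3 genes KO replicates 3 and 4 lay above every wild type library and KO replicates 1 and 2 did not. Mrps30, also of the large subunit by structure, had a log2 fold change of 0.32 (-0.10 to 0.74), and Mrps36 had 0.34 (-0.13 to 0.81).

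Both members with a negative estimate belonged to the small subunit. Mrps6, which has a bacterial relative, had 41.7, 47.9, 37.4 and 45.9 CPM in wild type libraries and 40.2, 39.0, 26.3 and 57.2 CPM in KO. KO replicate 3 was the lowest and KO replicate 4 the highest of the 8 libraries, and the log2 fold change of -0.09 (-0.57 to 0.40) became 0.10 in the 6 libraries with Y-linked counts. Mrps26, found only in mitochondrial ribosomes, had 66.5, 74.9, 58.0 and 81.3 CPM in wild type libraries and 66.4, 61.3, 69.1 and 80.2 CPM in KO, a log2 fold change of -0.02 (-0.37 to 0.33) that became 0.06 in those 6 libraries. Mrps25, likewise without a bacterial relative, stood at 0.06 (-0.33 to 0.44) and at -0.08 in those libraries.

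**Figure D3:**
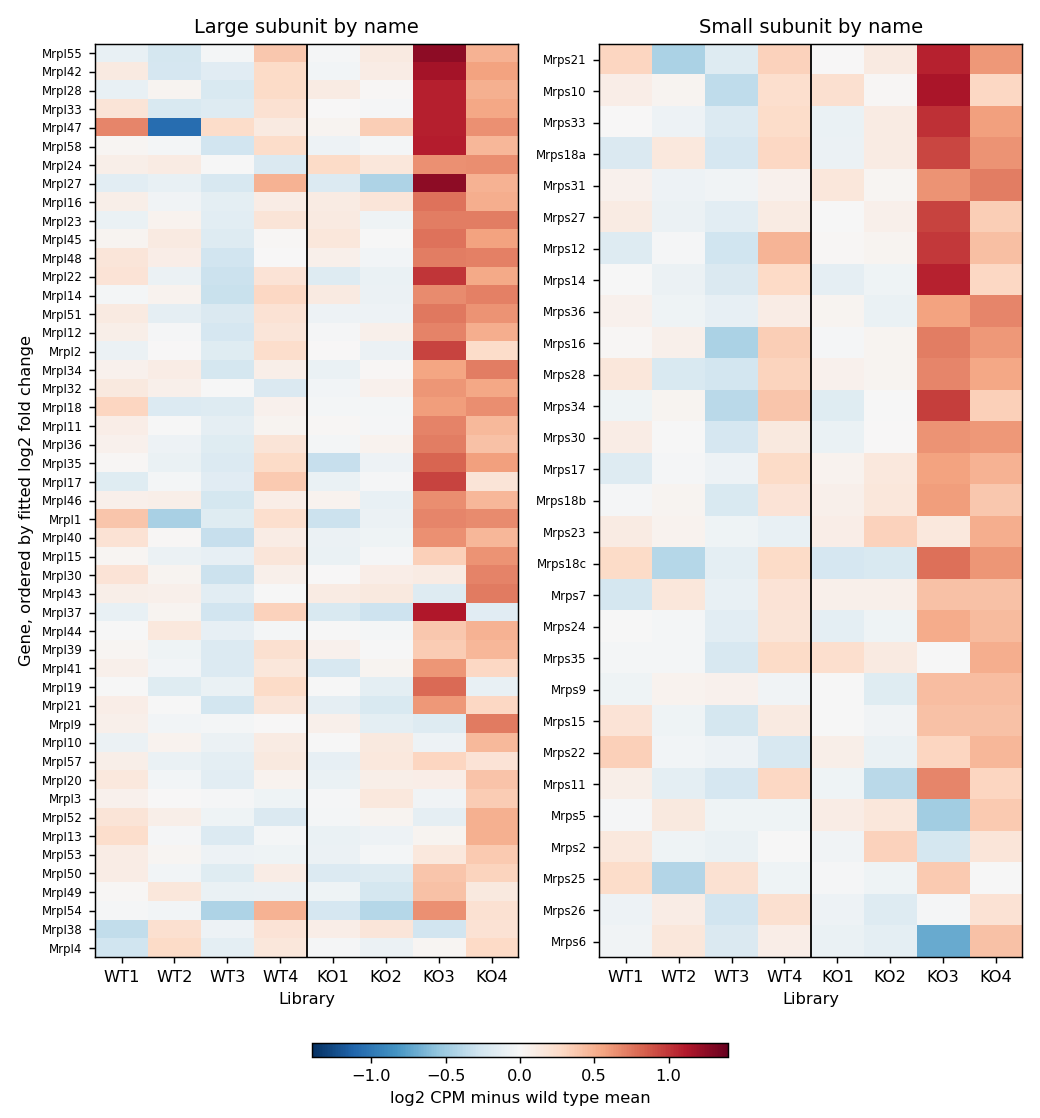
Log2 CPM minus the wild type mean (colour) for each gene (rows, ordered by fitted log2 fold change within each subunit by name) in the 4 wild type and 4 KO libraries (columns, divided by a black line). KO replicate 3 mixes deep red with a few blue cells (Mrps6 and Mrps5 lowest), KO replicate 4 is above the wild type mean for 75 of 78 genes, and the single dark blue cell is Mrpl47 in wild type replicate 2.

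The KO libraries with high sums differed in how evenly the genes stood above wild type. In KO replicate 4 the deviations from the wild type mean had an SD over genes of 0.20 in the large and 0.16 in the small subunit, and 0 members exceeded 1 on the log2 scale. In KO replicate 3 the SDs were 0.41 and 0.47, 13 members exceeded 1, and 11 members were below the wild type mean, of which 5 were below every wild type library. These 5 are 6.41% of the members, beside 33.0% of all genes below every wild type library there. Above the wild type mean in that library lay 85.9% of the members and 48.8% of all genes. KO replicate 1, for comparison, had SDs of 0.12 and 0.11. Of the 78 genes, 49 were higher in KO replicate 3 than in KO replicate 4 and 29 were lower. Over all genes tested the SD of the deviations was 0.85 in KO replicate 3, 0.58 in KO replicate 4 and 0.42 in KO replicate 1, so a wider spread in KO replicate 3 was not particular to these genes.

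The genes that led and trailed in KO replicate 3 were set against its own group. Relative to the mean of the other 3 KO libraries, Mrpl37 was 1.34 higher on the log2 scale, Mrpl27 1.30, Mrpl55 1.05 and Mrps14 1.04. Mrpl37, found only in mitochondrial ribosomes, had 170 CPM there and 63.9 to 69.9 CPM in the other KO libraries. At the other end stood Mrps6 at -0.76, Mrps5 at -0.71, Mrpl43 at -0.51, Mrpl38 at -0.42, Mrpl9 at -0.40 and Mrps2 at -0.40. Some of these were among the highest in KO replicate 4 against its group, with Mrpl9 at 0.81, Mrps6 at 0.73 and Mrpl43 at 0.70. These genes were named after their values had been seen.

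The order of the genes in KO replicate 3 resembled that in wild type replicate 4, the other library without Y-linked counts. Across the 78 genes, the deviation of KO replicate 3 from the other KO libraries and that of wild type replicate 4 from the other wild type libraries had a Spearman correlation of 0.66 and a Pearson correlation of 0.60. By subunit the Spearman values were 0.71 (49 genes) and 0.67 (29 genes), and over all 13439 genes the value was 0.44. These are descriptions across genes, whose points share the same 8 libraries and their depths, and genes are not replicates. Among the 16 pairings of a wild type with a KO library this was the highest value for the members, the next being 0.46 for wild type replicate 2 with KO replicate 1. Wild type replicate 4 was the highest wild type library for 44 of 78 members (56.4%, all genes 24.7%). There 63 members lay above the mean of the other 3 wild type libraries (80.8%, all genes 49.8%). The same number, 63, lay above the mean of the other KO libraries in KO replicate 3. KO replicates 1, 2 and 4, which have Y-linked counts, had correlations of -0.53, -0.48 and -0.40 with wild type replicate 4. Their deviations are taken from means that include KO replicate 3, so a negative value is partly built in. These values do not set KO replicate 4 apart. By the sums given above, the members were high in 1 KO library with and in 1 without Y-linked counts.

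**Figure D4:**
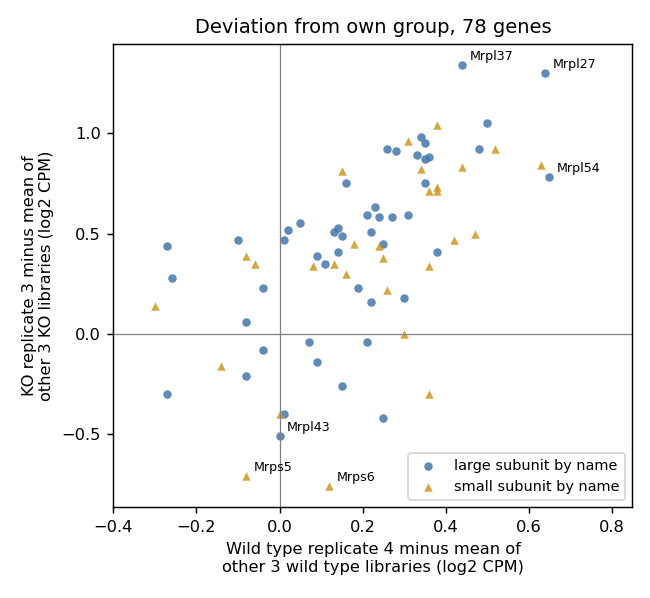
Deviation of wild type replicate 4 from the mean of the other 3 wild type libraries (x axis, log2 CPM) against that of KO replicate 3 from the other 3 KO libraries (y axis, log2 CPM) for the 78 genes, as circles for the large and triangles for the small subunit by name. Points rise from lower left to upper right (Spearman 0.66 over the genes), with Mrpl37 and Mrpl27 at the top and Mrps6 and Mrps5 at the bottom.

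Levels were compared between genes per kilobase of transcript, as CPM over all 8 libraries divided by the length of 1 annotated transcript per gene. The median was 48.9 CPM per kb in the large and 49.2 in the small subunit, and 11.9 over all genes tested. The highest large subunit values were 179 CPM per kb for Mrpl42, 140 for Mrpl28 and 137 for Mrpl33, and the lowest were 9.64 for Mrpl47, 14.4 for Mrpl58 and 14.5 for Mrpl17. In the small subunit Mrps18c (113), Mrps15 (80.9) and Mrps12 (78.4) were highest and Mrps5 (11.5), Mrps35 (13.2) and Mrps26 (16.3) lowest. The order depended on the length used. Mrpl17, with an annotated transcript of 7300 bases and a coding part of 528 bases, ranked 47 of 49 per kilobase of transcript and 8 per kilobase of coding sequence, and Mrps26 moved from rank 27 to rank 13 of 29. Mrpl47 was last of the large subunit on both scales. It also had the lowest single deviation of any member, with 11.9 CPM in wild type replicate 2 where the remaining wild type libraries had 27.2 to 40.4 CPM.

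The members were short transcripts. Their median transcript length was 1302 bases and their median coding length 582 bases, against 2839 and 1363.5 bases over all genes tested with an annotation, and their GC content was 50.4% against 50.2%. Fold changes were lower for longer transcripts over all genes (Spearman -0.33 across 13187 genes) and more weakly over the members (-0.22 across 78 genes), as descriptions across genes that share libraries. Length was also set against each library's deviation from the others of its group. Over all genes this gave 0.35, 0.36, -0.18 and -0.32 in KO replicates 1 to 4, and 0.11, -0.13, 0.27 and -0.18 in wild type. Over the members the KO values were 0.21, 0.30, -0.17 and -0.06. KO replicates 1 and 2 thus differed in sign from KO replicates 3 and 4, though the member value of KO replicate 4 was only -0.06. Each deviation is taken from the other libraries of its group, so opposite signs are partly built in. A link to the members' levels was not tested. The longer 39 members had a median log2 fold change of 0.24 and the shorter 39 of 0.32. After a trend of fold change on transcript length and mean level, fitted over all genes, was removed, the medians were 0.16 for the large and 0.15 for the small subunit.

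The genes lay on 17 chromosomes, with 11 on chromosome 11, 8 on chromosome 17 and 7 on chromosome 6. Of the 78 genes, 42 overlapped another annotated gene and 26 a coding gene, in GENCODE release 21 for mouse on GRCm38, the assembly that mm10 names. How the deposited counting treated strand and overlaps is not stated in the labels, so reads of an overlapping pair could be shared. Mrpl24 overlaps Rrnad1, and Mrps18a overlaps Rsph9. Without overlapping genes the medians were 0.26 over 22 large subunit genes and 0.34 over 14 small subunit genes. For 18 members (23.1%) a coding gene started on the opposite strand within 1000 bases upstream, pointing away and without overlap at the starts. This held for 6.95% of the 20868 coding genes in the table, tested or not. Pairs whose starts overlap, such as Mrpl46 and Mrps11, were not counted. These neighbours started 26 to 935 bases away, and 17 of them were tested.

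The neighbours had a lower median fold change than the members they share a start region with, a difference that was not tested. Their median log2 fold change was 0.08, with 10 of 17 above 0 and 0 called, and that of their members was 0.26; the member was the higher of the pair in 12 of 17. Sars2, the mitochondrial seryl-tRNA synthetase gene 172 bases from Mrps12, had 33.2, 33.7, 27.8 and 37.0 CPM in wild type libraries and 42.1, 26.2, 32.5 and 33.0 CPM in KO, a log2 fold change of 0.02 (-0.39 to 0.43) that was -0.03 with library size scaling. In KO replicate 3, where Mrps12 stood at 117 CPM, Sars2 was inside its wild type range. Over the 17 neighbours, the median deviation from the wild type mean was -0.04 in KO replicate 3 and 0.07 in KO replicate 4. Psma2, a proteasome gene 75 bases from Mrpl32, was the neighbour most like its member in fold change (0.33 and 0.32).

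Other genes of mitochondrial translation were taken from lists of known components, with the members left out. The 5 mitochondrial ribosomal proteins with other names (Aurkaip1, Chchd1, Gadd45gip1, Ptcd3 and Dap3) were all above 0, with a median log2 fold change of 0.22 and 0 called. Aurkaip1, a small subunit protein, had 73.7, 79.6, 65.6 and 81.5 CPM in wild type libraries and 90.1, 83.5, 123 and 122 CPM in KO. Its KO libraries all lay above its wild type libraries, with a log2 fold change of 0.48 (0.11 to 0.85, adjusted p = 0.746 in the edgeR fit). Chchd1, Gadd45gip1 and Ptcd3 stood at 0.26, 0.22 and 0.15, and Chchd1 at -0.03 with voom's sample weights. Dap3, a GTP-binding protein of the small subunit, had the lowest value of the list, 0.07 (-0.23 to 0.36).

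Factors that assemble the ribosome or modify its RNA had a median log2 fold change of 0.09, with 22 of 30 above 0 and 0 called. The highest were Mrm3, a methyltransferase of the large ribosomal RNA, at 0.49 (0.00 to 0.98), with 58.2 CPM in KO replicate 3 and 29.6 to 34.9 CPM in the other KO libraries, and Mettl15, a methyltransferase of the small ribosomal RNA, at 0.46 (0.00 to 0.92). Mitochondrial translation factors had a median of 0.14, with 12 of 15 above 0 and 0 called. Mtrf1, of the release factor family, stood at 0.59 (-0.09 to 1.28) and Taco1, which aids translation of a cytochrome oxidase subunit, at 0.40 (-0.11 to 0.91). The mitochondrial aminoacyl-tRNA synthetases and related enzymes had a median of 0.10, with 17 of 20 above 0 and 0 called. Gatb, a subunit of the amidotransferase that makes glutaminyl-tRNA, was at 0.43 (0.05 to 0.81, adjusted p = 0.772 by the same test), and Nars2, an asparaginyl-tRNA synthetase, at 0.33 (-0.05 to 0.70).

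Genes of mitochondrial transcription and RNA processing had a median log2 fold change of -0.02, with 8 of 17 above 0 and 0 called. Elac2, the nuclease that cuts tRNA 3′ ends, was at -0.31 (-0.71 to 0.08) and Polg, the mitochondrial DNA polymerase, at -0.28 (-0.65 to 0.09), and both were lowest in KO replicate 3, at 30.0 and 37.9 CPM. Regulators of nuclear genes for mitochondria had a median of -0.04, with 5 of 12 above 0 and 0 called. Ppargc1a, a coactivator of mitochondrial biogenesis, had 8.94, 5.12, 7.93 and 4.22 CPM in wild type libraries and 2.99, 5.55, 1.60 and 2.17 CPM in KO. KO replicate 2 lay inside the wild type range and the other KO libraries below it, with a log2 fold change of -1.09 (-2.02 to -0.17, adjusted p = 0.772 in the same fit). Mycn, a MYC family factor, was at -0.52 (-1.11 to 0.07).

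By library, the other named ribosomal proteins followed the members, with median deviations from the wild type mean of -0.04, -0.02, 0.61 and 0.32 in KO replicates 1 to 4. The assembly factors had 0.03, 0.01, 0.14 and 0.25, and the translation factors 0.06, 0.04, 0.18 and 0.28. The synthetases had 0.14, 0.20, 0.24 and 0.14, above the highest wild type median of 0.09 in all 4 KO libraries. The difference between the lists was not tested.

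**Figure D5:**
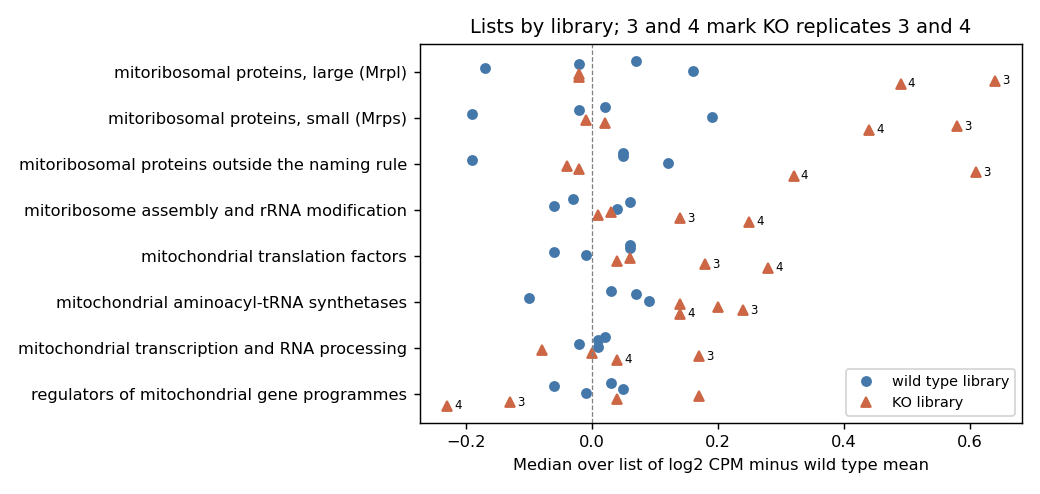
Median over each list of the log2 CPM minus the wild type mean (x axis), for the members by subunit name and the other lists of mitochondrial translation and its regulation (rows), with circles for wild type and triangles for KO libraries and the numbers 3 and 4 at KO replicates 3 and 4. In the first 3 rows KO replicates 3 and 4 lie at 0.32 to 0.64 and the other 6 libraries between -0.19 and 0.19.

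The RNA parts of the ribosome come from the mitochondrial genome and carry short A tails, on which their capture in a library of polyadenylated RNA depends. mt-Rnr1, the small ribosomal RNA, had 905, 120, 557 and 831 CPM in wild type libraries and 722, 796, 206 and 331 CPM in KO, a log2 fold change of -0.23 (-1.41 to 0.95, adjusted p = 0.942 by edgeR's quasi-likelihood test). mt-Rnr2, the large ribosomal RNA, had 4260, 517, 2770 and 1650 CPM in wild type libraries and 3600, 3770, 769 and 1300 CPM in KO, a log2 fold change of 0.04 (-1.24 to 1.32). Both RNAs were lower in KO replicates 3 and 4, where the summed protein genes were highest, than in KO replicates 1 and 2. They were lowest in wild type replicate 2, whose summed protein genes, at 4885 CPM, lay between the other wild type libraries. The sign of either fold change depended on the fit, with mt-Rnr1 at 0.35 under voom's sample weights and mt-Rnr2 at -0.19 with the length and expression trend removed. Of 13 symbols listed for the messenger RNAs of the mitochondrial genome, 0 were found in the gene count table, so these RNAs were not analysed here.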

How the data were processed

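Raw read counts per gene for 4 wild type and 4 Jmjd6 KO libraries of LSK cells were used as the authors deposited them, as whole-number counts with no normalization. The submitters' processing notes name HISAT2 and the mouse assembly mm10. The aligner version, counting program, annotation and strand setting were not given in the sources used here. Every table column matched 1 sample title.

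Genes were kept by edgeR's filterByExpr defaults, scaled by trimmed mean of M values and tested with edgeR 4.0.16 (quasi-likelihood test, KO against wild type, no covariates, all 8 libraries, R 4.3.3), with Benjamini-Hochberg adjustment over all 13439 genes tested and a threshold of 0.05. Unadjusted and adjusted p-values and 95% intervals come from this fit unless another tool is named. CPM use the scaled library sizes, and log2 CPM a prior count of 2. DESeq2 1.42.0 and limma 3.58.1 (voom with sample weights) served as alternatives, with other scalings, filters and libraries left out. The fitting code was tested on simulated data. Lists are described by counts and medians, with no test. Libraries of a group differed by more than sampling noise (chi-square per degree of freedom 6.65 to 93.4). The lowest value was that of KO replicates 1 and 2, and the other pairs had 16.0 to 93.4. Each library was counted as 1 sample, and these values do not show that each came from a separate animal.

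Replicate numbers did not pair the libraries. The genes and lists were chosen with earlier results of these data known. Named members were those with an unadjusted p under 0.05, the 3 highest and 3 lowest fold changes and levels per kilobase in each subunit, and members with a known role; Mrpl9, Mrpl22, Mrpl27, Mrpl32, Mrpl37, Mrpl43 and Mrps14 were named after their values were seen. Of the other lists, the 2 genes with the smallest p were named, apart from single additions made after values were seen (Chchd1, Ptcd3, Dap3, Sars2, Psma2). Transcript lengths came from GENCODE (1 transcript per gene, by annotation rank, then length).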

Additional observations from a re-analysis of the deposited data

Results flagged for a closer look

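Among 140 sets of 4 libraries that were checked for a single library far from the others, 5 were picked out by Dixon's test, where chance alone gives about 1 in 20. Mrps25 in the KO group stood at 139 CPM in KO replicate 3 and at 104 to 107 CPM in the other 3 KO libraries, so that the gap took 0.905 of the whole range. Mrpl37 stood at 170 CPM in KO replicate 3 and at 63.9 to 69.9 CPM in the other KO libraries (0.943 of the range), the library for which it had been chosen. Mrpl27 in the wild type group was at 50.4 CPM in wild type replicate 4 and at 30.7 to 33.5 CPM in the other 3 (0.858 of the range). Of the genes that are not members by name, Dap3 was at 118 CPM in KO replicate 4 and at 94.6 to 95.4 CPM in the other KO libraries, and Mycn was lowest in KO replicate 3, at 44.6 CPM, with 90.9 to 96.3 CPM in the others.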

How the results depend on the processing

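The count of 0 members past an adjusted p of 0.05 held in every fit that was run, by edgeR, DESeq2 and limma voom, and at an adjusted p of 0.1. With library size scaling, the no-filter fit and the other alternatives, both subunit medians stayed above 0, the lowest being 0.10 and 0.15 with voom's sample weights. The median spanned 0.17 to 0.43 (large) and 0.16 to 0.42 (small) as each library was left out in turn. Jmjd6 stood at -1.02 with the replicate number as a block (adjusted p = 0.402 by edgeR's quasi-likelihood test) and at -1.02 in the 6 libraries with Y-linked counts (adjusted p = 0.105), and at -1.06 to -0.99 with single libraries left out. With the block the subunit medians were 0.25 and 0.27, 0 members and 3 genes were called, and same-numbered libraries had correlations of 0.03, -0.01, -0.18 and -0.19 over all genes, with 0 libraries closest to their own number.

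Of 799 alternative values of 47 members (40 named by the rule and 7 named after their values were seen), 764 kept their direction and 35 reversed, in 12 members. Of 323 values of 19 other named genes, 17 reversed, in 6 genes. With library size scaling, Mrpl38 and Mrpl4 stood at -0.02 each and Sars2 at -0.03. With the replicate block mt-Rnr2 stood at -0.01. With voom's sample weights, Mrpl54 and Mrpl27 stood at -0.14, Mrpl37 at -0.13, Mrps18c at -0.08, Mrps25 at -0.09, Chchd1 at -0.03 and mt-Rnr1 at 0.35. In the 6 libraries with Y-linked counts, Mrps25 stood at -0.08, Mrpl37 at -0.12, Mrps26 at 0.06, Mrps6 at 0.10 and mt-Rnr1 at 0.23. With the length and expression trend removed, Mrpl38 stood at -0.08, Mrpl4 at -0.11, Mrpl54 at -0.14, Mrps2 at -0.01, Mrps26 at 0.03, Sars2 at -0.03 and mt-Rnr2 at -0.19. With single libraries left out, the range was -0.05 to 0.13 for Mrpl38, -0.04 to 0.13 for Mrpl4, -0.16 to 0.26 for Mrpl54, -0.02 to 0.15 for Mrps2, -0.06 to 0.16 for Mrps25, -0.10 to 0.06 for Mrps26, -0.05 to 0.22 for Mrps5 and -0.30 to 0.07 for Mrps6. It was -0.02 to 0.63 for Mrpl27, -0.24 to 0.40 for Mrpl37 and -0.08 to 0.28 for Mrpl9. Of the other genes, Dap3 spanned -0.02 to 0.12, Ptcd3 -0.01 to 0.28, Sars2 -0.09 to 0.14, mt-Rnr1 -0.57 to 0.03 and mt-Rnr2 -0.29 to 0.52. The causes were not tested. With 4 libraries a group the median standard error of a member's log2 fold change was 0.196, and no single member could be told from 0 after adjustment.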
